A study of Mus musculus with 6 samples.

Results

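The cytosolic ribosomal protein genes were followed across 3 mouse embryonic stem cell lines that differ in METTL3, the catalytic subunit of the enzyme that writes N6-methyladenosine (m6A) on RNA. Members were taken by symbol: Rpl or Rps with a number and at most a short suffix, plus Rpsa, Rplp0, Rplp1 and Rplp2, without symbols ending in -ps and without the Rps6k kinases. The rule found 85 of the 24984 gene symbols counted, 52 named for the large and 33 for the small ribosomal subunit. The annotation lists 83 of the 85 as protein-coding, while Rpl32l and Rps4l are listed as processed pseudogenes. After removal of genes with low counts, 15663 genes were tested, among them 50 large and 33 small subunit genes.

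All cells were E14TG2a, an established mouse embryonic stem cell line, kept in N2B27, a serum-free medium. Unmodified cells (WT), cells with METTL3 disrupted by CRISPR/Cas9 (KO) and cells in which CRISPR/Cas9 and homology-mediated end joining had placed METTL3 D395A, a change in the catalytic motif, gave 2 libraries each. Each modified genotype is 1 cell line, and whether its 2 libraries came from separate cultures or clones is not stated, so p-values measure the spread between these libraries only. The stated aim of the series was the interplay of m6A and circular RNA, and no m6A measurement was used here. Libraries were made from total RNA after depletion of ribosomal RNA.

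Each cytosolic ribosome joins a small subunit, which reads the message, to a large subunit, which forms the peptide bond. Cells need their proteins in matched amounts, and many of the messages begin with a run of pyrimidines at the 5′ end (the TOP element), through which the kinase complex mTORC1 and the protein LARP1 control their translation and stability. Rpl5, Rpl11 and Rps6 are also studied as links from ribosome assembly or growth signalling to the rest of the cell, and some members have a second gene copy (a paralog) that is used in particular tissues.

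The 40 bases around the annotated start are shown for 8 members, because the results below separate genes with and without a long pyrimidine run there. They are RefSeq sequences of build GRCm38.p6, read 5′ to 3′ on the strand of the gene, with the 20 bases before the start and the first 20 transcribed bases. Capitals mark the longest unbroken run of C and T. All 8 have 1 annotated start in that table.
Rpl7a, chr2:26910787-26910826: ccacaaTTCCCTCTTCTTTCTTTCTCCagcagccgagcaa
Rpl35, chr2:39005112-39005151: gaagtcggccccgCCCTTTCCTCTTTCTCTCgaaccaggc
Rplp2, chr7:141447631-141447670: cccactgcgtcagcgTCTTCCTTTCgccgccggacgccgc
Rps6, chr4:86857348-86857387: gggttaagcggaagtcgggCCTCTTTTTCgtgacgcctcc
Rpl22l1, chr3:28805488-28805527: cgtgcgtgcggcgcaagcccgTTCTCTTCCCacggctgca
Rpl41, chr10:128549149-128549188: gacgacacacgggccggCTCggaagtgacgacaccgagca
Rpl10l, chr12:66284382-66284421: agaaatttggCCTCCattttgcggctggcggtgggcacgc
Rpl23, chr11:97782420-97782459: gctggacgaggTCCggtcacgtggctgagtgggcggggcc
The longest run measured 21 bases in Rpl7a, 18 in Rpl35, and 10 each in Rplp2, Rps6 and Rpl22l1. In Rpl10l it measured 5 bases, and in Rpl41 and Rpl23 it measured 3.

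Of the 85 members, 64 were in the RefSeq promoter table, and 31 of these (48.4%) had a run of at least 8 pyrimidines on the gene's strand within this window. The share was 18.4% over all 27025 genes of the table and 19.2% over 11266 other coding genes that were tested here. The 7 letters CCGGAAG, searched on both strands from 250 bases before to 50 after the start, occurred in 26 of the 64 members (40.6%), in 9.93% of all genes of the table and in 18.2% of the other tested coding genes. Both counts describe letters in a window and say nothing on binding or translation.

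Levels are given as CPM, read counts brought to a common library size after scaling by the trimmed mean of M-values. Gene counts totalled 40476809 and 36136543 (WT replicates 1 and 2), 35851584 and 35613626 (KO) and 22859491 and 35784699 (D395A), and 1 count equalled 0.0246 to 0.0426 CPM. Mettl3, the targeted gene, read 28.5 and 31.6 CPM (WT), 7.82 and 6.17 CPM (KO) and 21.1 and 23.4 CPM (D395A). It fell in KO by 2.10 ± 0.11 (SE) on the log2 scale, and residual counts remained there (edgeR quasi-likelihood test, Benjamini-Hochberg adjusted p = 6.5e-09). Mettl3 was also called lower in D395A, with a smaller change of -0.43 ± 0.10 (adjusted p = 0.0022, edgeR). The cells were checked against 9 embryonic stem cell markers. All 9 passed the filter on low counts, with a summed level of 4152 to 4218 CPM (WT), 4810 to 4833 CPM (KO) and 2033 to 2088 CPM (D395A), where 8 of the 9 fell. Their part in the changes described below was not tested. Markers of 5 other cell types were low: the summed levels in WT, KO and D395A lay within 28.1 to 28.2, 22.3 to 22.5 and 11.5 to 12 CPM for 8 fibroblast genes, 85.9 to 90.3, 55.4 to 55.6 and 61.6 to 61.8 CPM for 7 neural genes, 8.63 to 9.46, 3.75 to 5.24 and 24.2 to 25.6 CPM for 7 endoderm genes, 19.3 to 23.2, 10.8 to 11.6 and 5.05 to 5.2 CPM for 7 mesoderm genes, and 56.8 to 57.4, 56.1 to 59.1 and 79.2 to 83.9 CPM for 7 trophoblast genes. None of these markers was at 0 in all 6 libraries. The sums hide single genes that rose in D395A from low levels: mean CPM in WT and D395A was 0.106 and 21.3 for Foxa2 (endoderm), 1.29 and 11 for Pax6 and 3.73 and 10.1 for Sox1 (neural), and 0.089 and 2.91 for Cdx2 (trophoblast). Of 5 neural markers tested, 3 rose and 2 fell in D395A. For endoderm 1 of 4 tested markers rose and 2 fell, and for trophoblast 5 of 6 rose and 0 fell. Over all tested genes 36.3% rose and 34% fell in D395A. The part of these markers in the results was not tested either.

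D395A replicate 1 stood apart from its replicate in these genes. Of the 79 tested members at 2 CPM or more, 79 were higher in D395A replicate 1 than in replicate 2, by a median of 0.23 on the log2 scale, whereas 39.7% of all genes at that level were higher in replicate 1. The corresponding counts were 42 of 79 in WT and 51 of 79 in KO, with medians of 0.00 and 0.02. D395A replicate 1 was also the shallowest library and had the largest share of reads outside genes (37.3%, against 33.8% in D395A replicate 2, 30.2% in each WT library and 31.1% and 22.3% in KO). Of the 46 members called higher and the 6 called lower in D395A, 42 and 6 kept their calls without it. The value without it stands beside some results below, and D395A values printed alone may also depend on this library. Without it the changes from WT were 0.84 for Rps21, 0.60 for Rpl41, -0.53 for Rpl19, -0.81 for Rpl22l1 and -0.53 for Rpl38.

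**Figure D1:**
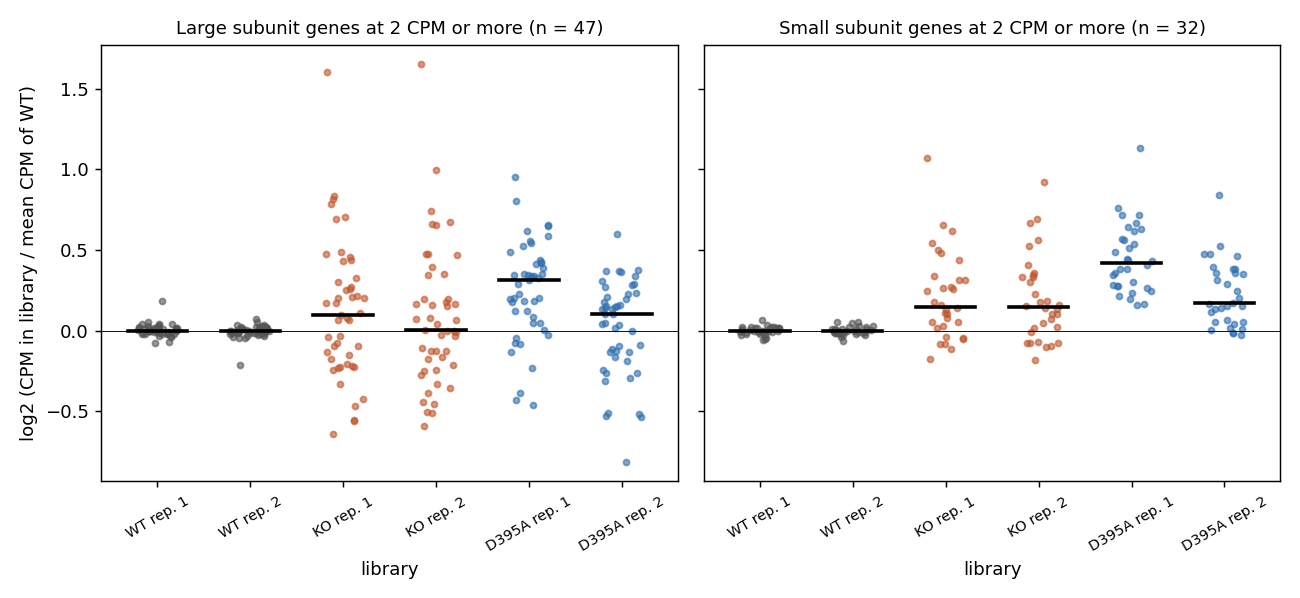
The log2 ratio of the CPM in each library to the mean CPM of WT is plotted for 47 large and 32 small subunit genes at 2 CPM or more. Points are genes, coloured by group, and black lines are medians. The WT replicates lie close to 0, and D395A replicate 1 lies above D395A replicate 2 for both subunits.

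As a group, ribosomal protein genes took a modestly larger share of the counts in both modified lines. They held 4.03% of gene counts in each WT library, 4.3% and 4.17% in the KO libraries, and 5.2% and 4.39% in those of D395A. The groups did not overlap, but 2 libraries against 2 cannot give an exact two-sided permutation p below 0.333, the value obtained for each pair of groups. Rn45s, named for the ribosomal RNA precursor, held 10.8% and 11.2% of gene counts (WT), 16.7% and 15.7% (KO) and 14.3% and 13.9% (D395A). These libraries were depleted of ribosomal RNA, and the counts of Rn45s may include ribosomal RNA left after depletion. A change of the precursor cannot be told apart from a difference in depletion here. Without Rn45s in the total, the KO share over the WT share was 1.12 rather than 1.05. The ratio of large to small subunit counts was 1.54 in both WT libraries, 1.44 and 1.39 in KO, and 1.35 in both D395A libraries, with no overlap between groups and the same smallest p of 0.333 in the exact permutation test. The D395A share over the WT share was 1.19, and 1.09 without D395A replicate 1.

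In KO, 30 of 83 tested members rose and 13 fell (36.1% and 15.7%). Over all tested genes 66.2% were called, 33.6% as higher and 32.6% as lower. All 13 that fell belong to the large subunit: of 50 large subunit genes 16 rose and 13 fell, and of 33 small subunit genes 14 rose and 0 fell. Rps9, of the small subunit, read -0.18 ± 0.08 and was called lower in 6 of 18 alternative settings, among them scaling without chromosomes 8, 11 and Y (adjusted p = 0.023, edgeR) and omission of D395A replicate 1 (0.0044) or 2 (0.0048). The median change was 0.10 for the large and 0.14 for the small subunit on the log2 scale, beside 0.01 over all tested genes. For the small subunit no alternative setting yielded a different direction of the median. Without WT replicate 1, WT replicate 2 or KO replicate 2 the number that fell was 6, and without KO replicate 1 the large subunit median was 0.03. With scaling factors computed without chromosomes 8, 11 and Y, 25 rose and 17 fell, and the medians were 0.04 and 0.08.

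In D395A, 46 of 83 members rose and 6 fell (55.4% and 7.23%), where 70.3% of all tested genes were called, 36.3% as higher and 34% as lower. The small subunit again held none of the falls: 22 of its 33 genes rose and 0 fell, with a median change of 0.29, and of 50 large subunit genes 24 rose and 6 fell, with a median of 0.18. The median over all tested genes was 0.02. These values depended on single libraries, and 25 of the 46 rises and 4 of the 6 falls were called in each of 18 alternative settings. The small subunit median was 0.17 without D395A replicate 1 and 0.40 without D395A replicate 2, and that of the large subunit was 0.08 and 0.32. Without WT replicate 1 or 2 the number that rose was 30 or 29, and without D395A replicate 1 the number that fell was 13. Scaling without chromosomes 8, 11 and Y gave a large subunit median of 0.11.

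Both comparisons share the WT libraries, so the overlap of their calls is not independent. Of the 83 members, 25 rose in both lines (12 large and 13 small subunit genes), 4 fell in both, 19 were called in neither, and 20 were called only in D395A, as higher. These joint patterns were not counted over all tested genes, so whether the members stand out in them is not known. Taken singly, 66.2% of all tested genes were called in KO (33.6% as higher) and 70.3% in D395A (36.3% as higher). The test of D395A against KO called 26 members higher and 6 lower in D395A, against 26.5% and 23.8% of all tested genes (50.4% called in either direction). This count varied most: 15 rose when only these 2 groups were fitted, 16 without either WT library, 15 without KO replicate 2 and 52 without D395A replicate 2, and 16 fell without D395A replicate 1. The medians of that comparison were 0.11 for the large and 0.15 for the small subunit, and 0.02 and 0.04 without D395A replicate 1.

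**Figure D2:**
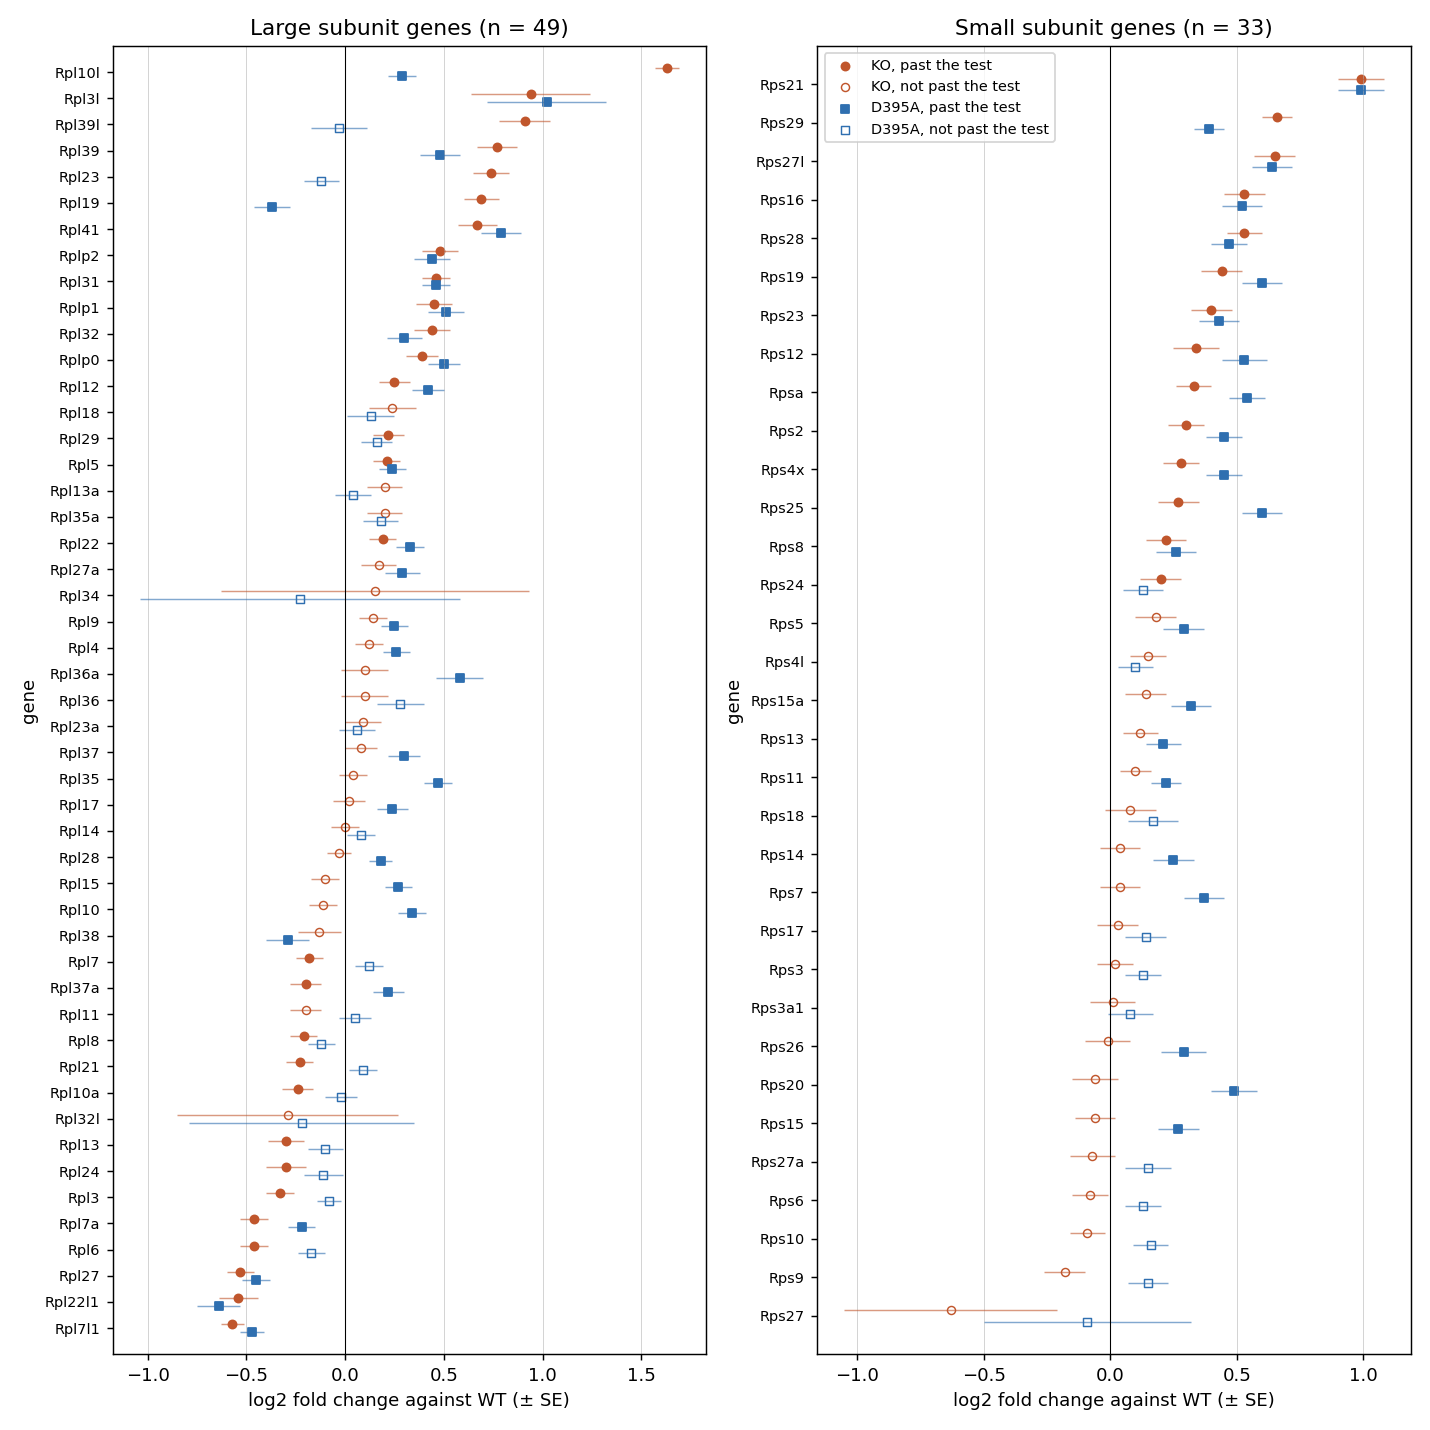
The log2 fold change against WT, with its standard error, is plotted for 49 of the 50 large and for all 33 small subunit genes tested. Circles are KO and squares are D395A, and filled symbols passed the adjusted p threshold. The genes that fell, in either line, are all on the large subunit side, and Rpl10l, Rpl39l, Rpl23 and Rpl19 lie much higher in KO than in D395A.

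Rps21, a small subunit protein, was the member of its subunit with the highest change in both lines. It read 122 and 122 CPM (WT), 256 and 231 CPM (KO) and 267 and 218 CPM (D395A). Both modified lines were above WT and overlapped each other. The log2 change was 0.99 ± 0.09 in KO (adjusted p = 7.1e-07, edgeR) and 0.99 ± 0.09 in D395A (adjusted p = 7e-07, edgeR), and the lines did not differ beyond error (-0.01 ± 0.09, adjusted p = 0.96, edgeR). The gene lies at chr2:180257377-180258445 on the plus strand (GRCm38).

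Rpl41, the smallest protein of the large subunit, behaved alike. It read 551 and 542 CPM (WT), 883 and 860 CPM (KO) and 1058 and 828 CPM (D395A), with both lines above WT. Its log2 change was 0.67 ± 0.10 in KO and 0.79 ± 0.10 in D395A (edgeR adjusted p = 4.1e-05 and 9.5e-06). Rps27l, a paralog of Rps27, rose from 117 and 107 CPM (WT) to 172 and 181 CPM (KO) and 190 and 161 CPM (D395A), by 0.65 ± 0.08 and 0.64 ± 0.08. Rps29, a zinc-binding protein of the small subunit, rose by 0.66 ± 0.06 in KO and 0.39 ± 0.06 in D395A.

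The stalk of the large subunit, which recruits translation factors, is built from Rplp0, Rplp1 and Rplp2, and all 3 genes rose in both lines. Rplp0 read 524 and 551 CPM (WT), 729 and 684 CPM (KO) and 825 and 695 CPM (D395A). Rplp1 read 895 and 900, 1207 and 1240, and 1410 and 1152 CPM in the same order. Rplp2 read 216 and 210, 296 and 296, and 320 and 257 CPM. For each of the 3, both modified lines lay above WT in every library and overlapped each other. On the log2 scale KO exceeded WT by 0.39, 0.45 and 0.48 and D395A exceeded it by 0.50, 0.51 and 0.44, each with an SE of 0.08 or 0.09. Without D395A replicate 1 the D395A values were 0.37, 0.36 and 0.28, all still called.

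Rpsa, the small subunit protein also known as the laminin receptor, read 1232 and 1225 CPM (WT), 1528 and 1549 CPM (KO) and 1880 and 1691 CPM (D395A), so that no groups overlapped. It rose by 0.33 ± 0.07 in KO and 0.54 ± 0.07 in D395A (edgeR adjusted p = 0.0011 and 1.5e-05). Rps19, needed for maturation of the small subunit and mutated in Diamond-Blackfan anaemia, rose by 0.44 ± 0.08 and 0.60 ± 0.08. Rps25, which viral internal ribosome entry sites require, rose by 0.60 ± 0.08 in D395A, while its change of 0.27 ± 0.08 in KO lost the call without WT replicate 1 (adjusted p = 0.065, edgeR), WT replicate 2 (0.11) or KO replicate 1 (0.058). Rps25 exons overlap those of Trappc4 and Ccdc84 on the opposite strand over 24.8% of their length, and the strand setting of the counting is not given in the sources used here.

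Other members passed the test in D395A and not in KO. Rps20, a head protein of the small subunit, read 265 and 284 CPM (WT), 266 and 261 CPM (KO) and 428 and 340 CPM (D395A). D395A was above the other 4 libraries. Its log2 change was -0.06 ± 0.09 in KO (adjusted p = 0.6, edgeR) and 0.49 ± 0.09 in D395A (adjusted p = 4.7e-04, edgeR), and D395A exceeded KO by 0.54 ± 0.09 (adjusted p = 3.6e-04, edgeR). Without D395A replicate 1 the D395A change was 0.31 and the difference from KO 0.37, both still called. Rpl10, a large subunit protein that joins late in assembly, read 791 and 765 CPM (WT), 729 and 712 CPM (KO) and 1018 and 949 CPM (D395A), and D395A exceeded KO by 0.45 ± 0.07. Its KO change of -0.11 ± 0.07 was called lower in 4 of the 18 settings. The corresponding differences were 0.43 ± 0.07 for Rpl35, located beside the exit of the peptide tunnel, and 0.48 ± 0.12 for Rpl36a. That of Rpl36a lost its call with DESeq2 (adjusted p = 0.057) and with a robust edgeR fit (0.11), as did its change of 0.58 ± 0.12 from WT with the robust fit (0.054). Without D395A replicate 1 the Rpl36a values were 0.34 against WT and 0.23 against KO. Rpl35 shares 66.2% of its exon length with Wdr38 and Arpc5l on the opposite strand.

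Rpl7a, Rpl7l1, Rpl22l1 and Rpl27 fell in both lines. Rpl7a, a large subunit protein whose gene hosts small nucleolar RNAs, read 1038 and 1027 CPM (WT), 746 and 754 CPM (KO) and 944 and 830 CPM (D395A). The 3 groups did not overlap, with KO lowest. Its change was -0.46 ± 0.07 in KO and -0.22 ± 0.07 in D395A, and the D395A call was lost without WT replicate 1 (adjusted p = 0.11, edgeR) or 2 (0.092). Rpl7l1, a paralog of Rpl7, read 156 and 147, 103 and 101, and 113 and 106 CPM in WT, KO and D395A. It fell by 0.57 ± 0.06 and 0.47 ± 0.06 on the log2 scale, with both lines below WT. Its share of the counts of the pair with Rpl7 was 12.9% and 12.6% (WT), 10.4% and 9.62% (KO) and 8.61% and 9.1% (D395A). Rpl6 and Rpl3, large subunit proteins, fell in KO by 0.46 ± 0.07 and 0.33 ± 0.07, and their D395A changes of -0.17 ± 0.07 and -0.08 ± 0.06 did not pass the test. Rpl6 was called lower in D395A in 9 of the 18 settings, with DESeq2 for example (adjusted p = 0.011), and without D395A replicate 1 both were (edgeR adjusted p = 7.3e-04 and 0.023).

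Among genes studied as signalling links, Rpl5, Rpl11 and Rps6 moved little, while Rpl23, described below, rose in KO. Rpl5 and Rpl11, which together with 5S RNA bind the ubiquitin ligase MDM2 when assembly fails, gave log2 changes of 0.21 ± 0.07 and -0.20 ± 0.08 in KO and 0.24 ± 0.07 and 0.05 ± 0.08 in D395A. Only the Rpl5 values passed the test, and both calls were lost without either WT library. Scaling without chromosomes 8, 11 and Y also lost both (edgeR adjusted p = 0.1 in KO and 0.061 in D395A). The KO call was lost too without KO replicate 1 and with scaling by library totals alone (adjusted p = 0.067, edgeR). The Rpl11 change in KO (adjusted p = 0.056, edgeR) was called lower in 10 of the 18 settings, with DESeq2 (0.037) and without either D395A library (0.0023 and 0.0026) among them. Rpl5 exons overlap Fam69a on the opposite strand over 24.3% of their length. Rps6, the substrate of the S6 kinases, read 594 and 587 CPM (WT), 557 and 559 CPM (KO) and 683 and 606 CPM (D395A). Its changes from WT of -0.08 ± 0.07 and 0.13 ± 0.07 did not pass. D395A was called higher than KO for Rpl11 (0.25) and Rps6 (0.21), and each call was kept in 13 of the 18 settings. Without D395A replicate 1 these differences were 0.11 and 0.12. Rpl13a, often used as a reference gene, did not pass against WT in the main fit either (0.20 ± 0.09 and 0.04 ± 0.09). Its KO change was called higher in 6 of the 18 settings, and its D395A change in 1. One of the 6 was the fit of only the 2 groups compared (adjusted p = 3.4e-04, edgeR).

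Paralogs and partners moved apart in some pairs and together in others. Rpl10l is an intronless copy of the X-linked Rpl10 at chr12:66283379-66284401, best known from the testis, and it had the highest change of any member. It read 47.2 and 48.4 CPM (WT), 145 and 150 CPM (KO) and 60.9 and 56.1 CPM (D395A). KO lay far above the other groups, which did not overlap either. The log2 change was 1.63 ± 0.06 in KO (adjusted p = 5e-10, edgeR) and 0.29 ± 0.07 in D395A (adjusted p = 0.0017, edgeR), with D395A below KO by 1.34 (-1.34 ± 0.06, adjusted p = 4.5e-09, edgeR). Rpl10l made up 5.63% and 5.95% of the counts of the pair (WT), 16.6% and 17.4% (KO) and 5.64% and 5.58% (D395A). No stretch of 50 bases of the Rpl10l transcript occurred in an Rpl10 transcript of the annotation, and the same was true of the other 6 pairs.

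Rpl39l, a copy of Rpl39 that lines the peptide exit tunnel in male germ cells, read 11.6 and 8.79 CPM (WT), 18.2 and 20.3 CPM (KO) and 11.1 and 9.09 CPM (D395A). KO was above the other groups, which overlapped. It rose in KO by 0.91 ± 0.13 and read -0.03 ± 0.14 in D395A, below KO by 0.94 (-0.94 ± 0.14, adjusted p = 1e-04, edgeR). Rpl39 itself rose in both lines, by 0.77 ± 0.10 and 0.48 ± 0.10 (0.29 in D395A without D395A replicate 1), so that the share of Rpl39l in the pair overlapped between WT (10.3% and 7.4%) and KO (9.05% and 10.3%) and was lower in D395A (6.29% and 6.58%). Rpl3l, the muscle copy of Rpl3, stood near the limit of detection at 1.2 and 1.21 CPM (WT), 2.3 and 2.33 CPM (KO) and 2.09 and 2.8 CPM (D395A). It rose by 0.94 ± 0.30 in KO, a call lost without WT replicate 1 (adjusted p = 0.07, edgeR) or 2 (0.066), and by 1.02 ± 0.30 in D395A, lost without D395A replicate 2 (0.08).

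Rpl22l1, the copy of Rpl22, went the other way from its partner. It read 43.1 and 47.9 CPM (WT), 29.2 and 33.5 CPM (KO) and 33 and 25.9 CPM (D395A), and fell by 0.54 ± 0.10 and 0.64 ± 0.11. Its exons overlap Gm33051 on the opposite strand over 7.99% of their length. Rpl22 rose by 0.33 ± 0.07 in D395A, whereas its 0.19 ± 0.07 in KO lost the call without any single WT or KO library. That call was also lost with scaling by library totals alone (adjusted p = 0.086, edgeR) or without chromosomes 8, 11 and Y (0.13). The share of Rpl22l1 in the pair was 12.9% and 14.2% (WT), 8.05% and 9.27% (KO) and 7.8% and 7.08% (D395A). Rps4l, annotated as a pseudogene of the X-linked Rps4x, was counted at 372 and 365 CPM in WT, and its changes of 0.15 ± 0.07 and 0.10 ± 0.07 did not pass the test. Rps4x rose by 0.28 ± 0.07 and 0.45 ± 0.07, the KO call being lost without WT replicate 1 (adjusted p = 0.065, edgeR).

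**Figure D3:**
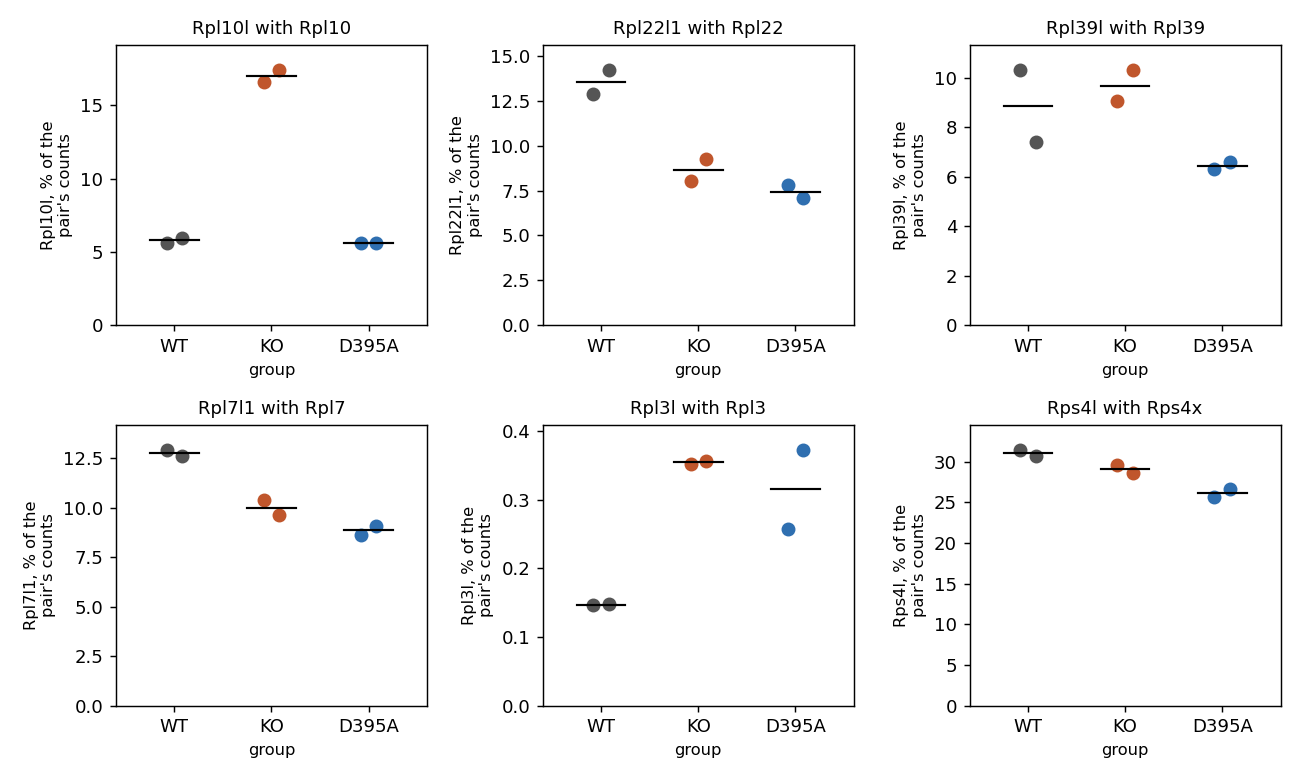
Each panel plots 1 paralog as a percentage of the counts of the pair it forms with its partner, with 1 point per library and a line at the mean of 2 libraries. The Rpl10l share is highest in KO at 16.6% and 17.4%, and the Rpl22l1 and Rpl7l1 shares are lower in both modified lines than in WT.

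Rpl19 was called in opposite directions in the 2 lines, and Rpl23 rose in KO, with D395A below KO for both. Rpl19, a large subunit protein, read 794 and 794 CPM (WT), 1293 and 1267 CPM (KO) and 675 and 550 CPM (D395A), and no groups overlapped. It rose in KO by 0.69 ± 0.09 (adjusted p = 1.4e-05, edgeR) and fell in D395A by 0.37 ± 0.09 (adjusted p = 0.0018, edgeR). Rpl23, which like Rpl5 and Rpl11 can bind MDM2, read 367 and 378, 655 and 587, and 373 and 314 CPM. It rose in KO by 0.74 ± 0.09 and did not pass in D395A (-0.12 ± 0.09, adjusted p = 0.24, edgeR), where it was called lower without D395A replicate 1 (-0.24, adjusted p = 0.0066, edgeR). D395A lay below KO by 1.06 for Rpl19 (-1.06 ± 0.09) and by 0.85 for Rpl23 (-0.85 ± 0.09). The calls of Rpl19 in all 3 comparisons, and those of Rpl23 in KO and between the lines, held in each of the 18 alternative settings.

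The genes around both moved too. Rpl19 (chr11:98026710-98030492) and Rpl23 (chr11:97777527-97782437) are neighbours on chromosome 11, whose 1302 tested genes had medians of -0.42 in KO and -0.49 in D395A. Within 1 Mb on each side of Rpl19, 56 other tested genes had medians of 0.11 in KO (23 rose and 16 fell) and -0.76 in D395A (7 rose and 39 fell). Around Rpl23, 59 such genes had medians of 0.21 and -0.65. Rpl27, on the same chromosome, fell by 0.53 ± 0.07 in KO and 0.45 ± 0.07 in D395A, and its 70 neighbours had medians of -0.63 and -0.53. Rpl38, also there, fell in D395A by 0.29 ± 0.11, a call lost without WT replicate 1, WT replicate 2 or D395A replicate 2. DESeq2 (adjusted p = 0.15), a robust edgeR fit (0.12) and edgeR with scaling by library totals alone (0.051) lost it too. The 35 neighbours of Rpl38 had a median of -0.71 in D395A. Of 13 falls in KO and 6 in D395A, 9 and 2 were of members off chromosomes 8 and 11 without opposite-strand exon overlap. Over all tested genes, without that restriction, 32.6% fell in KO and 34% in D395A. Among the members, 8 of the 83 tested lie on those chromosomes and 19 of the 85 have such overlap. The part of the chromosomal region in these changes was not tested.

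**Figure D4:**
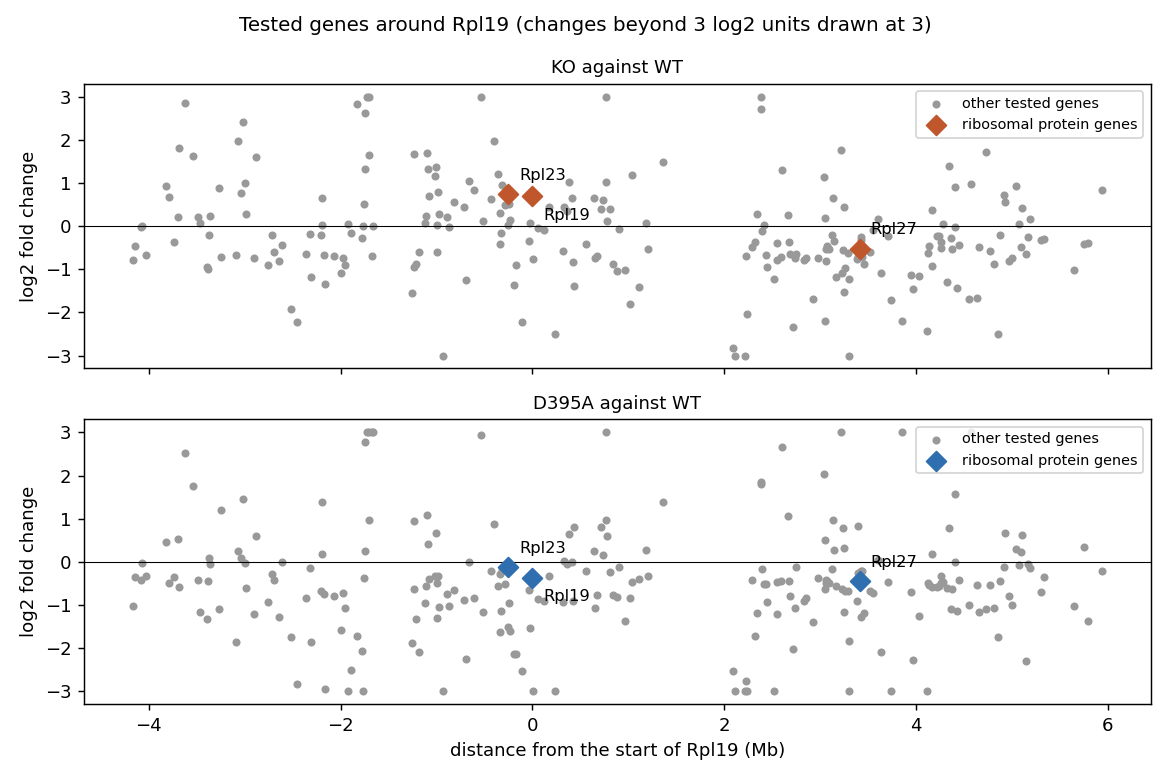
The log2 fold change against WT of tested genes on chromosome 11 is plotted by distance from the start of Rpl19, for KO above and D395A below. Diamonds are ribosomal protein genes, grey points are other genes, and changes beyond 3 are drawn at 3. Around distance 0 the genes scatter on both sides of the line in KO (median 0.11 within 1 Mb) and lie mostly under it in D395A (median -0.76), and Rpl27 lies among genes that were lower in both.

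Rpl37a, a zinc-binding protein of the large subunit, also had opposite calls. It read 340 and 323 CPM (WT), 282 and 295 CPM (KO) and 417 and 356 CPM (D395A), and no groups overlapped. The changes were small, -0.20 ± 0.08 in KO and 0.22 ± 0.08 in D395A. The KO call was lost without any single WT or KO library, and the D395A call without WT replicate 1, WT replicate 2 or D395A replicate 1. Scaling without chromosomes 8, 11 and Y also lost the D395A call (adjusted p = 0.1, edgeR). The difference of D395A from KO, 0.42 ± 0.08, passed in every setting.

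Levels per transcript length, in CPM per kilobase, were among the highest of the large subunit genes in WT for Rplp1 (1798 ± 6.82, SD, n = 2), Rpl13 (1464 ± 9.97) and Rpl23a (1282 ± 6.53). Among small subunit genes the first were Rps12 (1380 ± 38.4), Rps2 (1347 ± 21.8), Rps14 (1168 ± 12.5) and Rps15 (1096 ± 12.7). Rps12 and Rps2 differed by less than their spread. The medians were 452 and 520 CPM per kilobase. Over all 6 libraries the steadiest members were Rpl14, Rps4l and Rps3, with ranges of 0.16, 0.17 and 0.21 on the log2 scale, and the widest ranges were those of Rpl10l (1.66), Rpl19 (1.23) and Rpl39l (1.16). The order of levels depends on the transcript chosen: with the union of all annotated exons as length, 2 of the 4 small subunit names were the same.

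A few members that every cell needs were almost uncounted. Rpl26 had 0 counts in all 6 libraries, and Rpl30 had 10 and 17 counts (WT), 9 and 5 (KO) and 3 and 5 (D395A). Neither was tested. Rpl34 had 6 to 35 counts and Rps27 24 to 49 per library. Ribosomal protein genes have many near-identical copies in the genome, and 61 members had 293 named pseudogenes in the annotation. The share of a member's 50-base stretches that also occurred in an annotated transcript of another gene had a median of 49.3% and reached 98.6% in Rps27. It was 61% in Rpl26, 79.2% in Rpl30 and 48.9% in Rpl34, but also 95.1% in Rpl35, which was counted at over 500 CPM. Reads that aligned to several places made up 5.34% to 6.42% of all reads per library and are not in the gene counts. The cause of the near-absence was not tested.

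Counts of genes with many shared stretches are uncertain, so the members were described on each side of a share of 50%. In KO the median change was 0.16 for 44 tested members below it (19 rose, 4 fell) and 0.04 for 39 members at or above it (11 rose, 9 fell). The corresponding medians in D395A were 0.28 and 0.16, with 30 rises and 2 falls below the mark and 16 rises and 4 falls at or above it. Without D395A replicate 1 they were 0.17 and 0.04. Over all tested genes 33.6% rose and 32.6% fell in KO, and 36.3% rose and 34% fell in D395A. The values on each side of the mark are descriptions with no test.

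Members were also described by the pyrimidine run at the start, with no test of the difference. In KO the median change was 0.12 in 31 members with a run of at least 8 (9 rose, 3 fell) and 0.16 in 32 tested members without (16 rose, 6 fell). In D395A it was 0.17 with a run (14 rose, 4 fell) and 0.31 without (22 rose, 2 fell), or 0.05 and 0.23 when D395A replicate 1 was left out. The shares over all tested genes were 33.6% higher and 32.6% lower in KO, and 36.3% higher and 34% lower in D395A. Among the 8 sequences shown, Rpl7a with 21 pyrimidines fell in both lines, Rplp2 with 10 rose in both, and Rpl41 with 3 rose in both.

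The median change in KO was highest in the class with the shortest coding sequences. The 28 members with the shortest coding sequences (up to 405 bases) gave 0.20, the 26 of middle length 0.08 and the 27 longest (from 595 bases) 0.01. In D395A the medians were 0.33, 0.17 and 0.20, or 0.22, 0.14 and 0.10 without D395A replicate 1. Pearson's r between the log2 coding length and the log2 change was -0.26 in KO and -0.14 in D395A across 81 members, a description across genes that share libraries and scaling. Other coding genes as short as the first class, 651 in number, had medians of 0.05 and 0.11. GGACT, the core motif of m6A, was present in 49 of 81 member transcripts (60.5%) and in 91.9% of 14322 other tested coding transcripts, at 0.881 and 1.11 copies per kilobase. Members with the motif had a median change of 0.04 in KO and 0.18 in D395A, and the 32 without it 0.21 and 0.29. Without D395A replicate 1 the D395A medians were 0.11 and 0.16. The parts of length and motif were not tested apart.

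Falls outnumbered rises among the genes that build ribosomes. Of 64 ribosome assembly factors tested, 34 fell and 12 rose in KO (median -0.23), and 44 fell and 12 rose in D395A (median -0.39). Over all tested genes 32.6% fell and 33.6% rose in KO, and 34% and 36.3% in D395A, shares that also stand behind the groups that follow. Their summed level was 11814 to 12002 CPM (WT), 9206 to 9311 CPM (KO) and 8984 to 9185 CPM (D395A), with no overlap of either line with WT. Npm1, an abundant nucleolar chaperone, read 2876 and 2821 CPM (WT), 1338 and 1388 CPM (KO) and 1785 and 1725 CPM (D395A), and fell by 1.06 ± 0.06 and 0.70 ± 0.06. Heatr3, which brings Rpl5 to the nucleus, fell by 1.68 ± 0.07 and 0.88 ± 0.07. Pes1, of the complex that processes large subunit RNA, fell by 0.97 ± 0.06 and 1.06 ± 0.07, and Utp4, of the small subunit processome, by 0.91 ± 0.07 and 1.18 ± 0.07. Grwd1, a chaperone of Rpl3, rose by 1.26 ± 0.07 and 0.98 ± 0.07. Of the 64 genes, 10 lie on chromosomes 8 or 11, whose tested genes had low medians (-0.48 and -0.42 in KO, -0.35 and -0.49 in D395A). Npm1 and Pes1 (chromosome 11) and Heatr3 and Utp4 (chromosome 8) are among the 10, and the part of the chromosome in their changes was not tested.

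Among 15 genes of RNA polymerase I, which transcribes ribosomal RNA, 6 rose and 4 fell in KO (median 0.05), and 5 rose and 7 fell in D395A (median -0.08). Polr1b, its second-largest subunit, read 111 and 100 CPM (WT), 380 and 405 CPM (KO) and 197 and 218 CPM (D395A), without overlap, and rose by 1.89 ± 0.08 and 0.97 ± 0.08. Translation factors encoded by TOP mRNAs were mixed in KO, where 6 of 16 rose and 6 fell (median -0.08), and 1 rose without WT replicate 2. In D395A 7 rose and 4 fell (median 0.09), and the number that fell was smaller when either WT library was left out. Eef1a1, the elongation factor that delivers tRNA, rose by 0.34 ± 0.06 and 0.56 ± 0.06, from 9915 and 9865 CPM (WT) to 12200 and 12920 CPM (KO) and 14599 and 14515 CPM (D395A). Naca, of the nascent chain complex, fell in KO by 0.68 ± 0.06.

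Of 20 tested mTORC1 components and TOP mRNA regulators, 5 rose and 12 fell in KO (median -0.28), and 5 rose and 9 fell in D395A (median -0.14, or -0.05 without D395A replicate 1), where 70.3% of all genes were called. Deptor, an inhibitor of mTOR, fell by 0.76 ± 0.07 and 1.12 ± 0.07. Rragd, a GTPase that recruits mTORC1 to lysosomes, rose by 0.67 ± 0.07 and 2.23 ± 0.07. Some ribosomal protein genes lie outside the name rule. Rack1, on the small subunit head and encoded on chromosome 11, read 1996 and 1958 CPM (WT), 1464 and 1478 CPM (KO) and 1884 and 1721 CPM (D395A), and fell in KO by 0.43 ± 0.07. Fau, which encodes eS30, rose in D395A by 0.40 ± 0.10. Rpl36al had a KO change of 0.21 ± 0.07, and its call was lost without WT replicate 1, WT replicate 2 or KO replicate 1. It was also lost with scaling without chromosomes 8, 11 and Y (adjusted p = 0.071, edgeR).

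**Figure D5:**
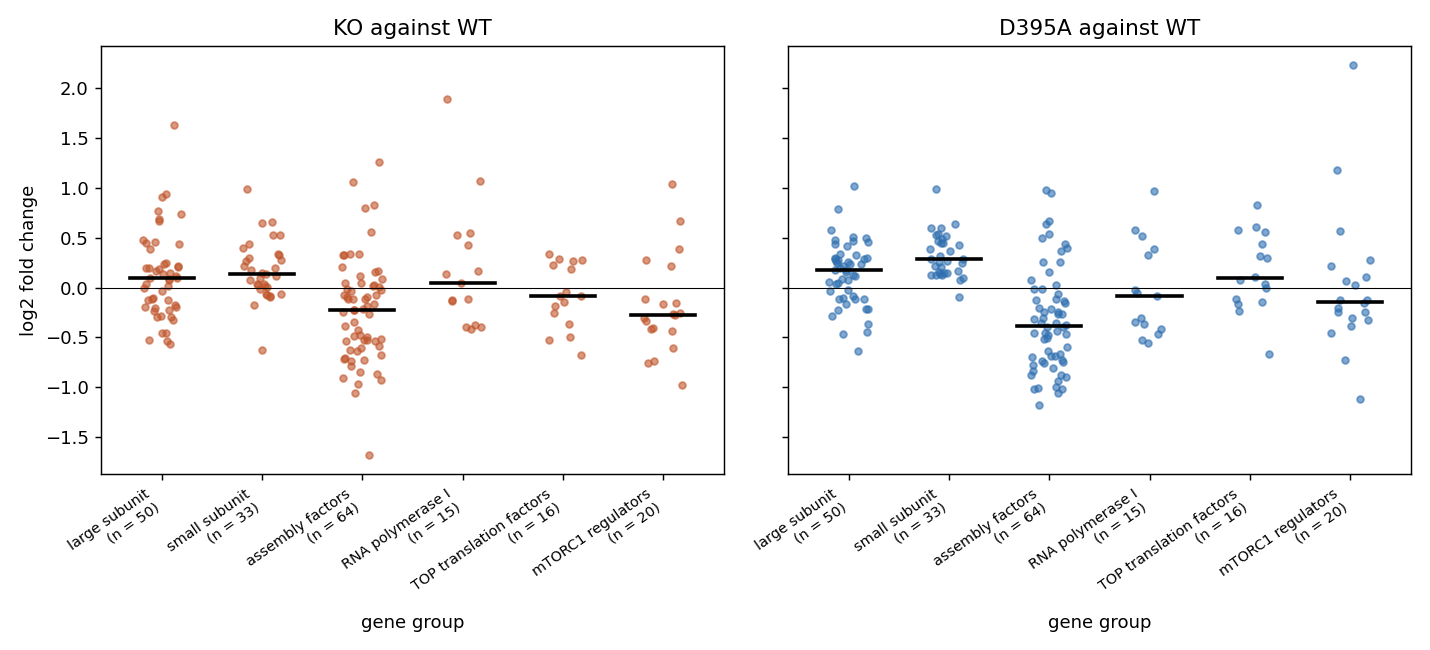
Log2 fold changes against WT are plotted for the tested genes of both ribosomal subunits and of 4 related gene groups, with KO on the left and D395A on the right. Points are genes and black lines are medians. The medians of the assembly factors, -0.23 in KO and -0.39 in D395A, lie below 0, and those of both subunits lie above it.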

How the data were processed

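Reads had been processed with Trimmomatic 0.36, STAR 2.7 and HTSeq 0.11.2 and the build was mm10, per the submitters' processing notes. The authors deposited 1 table of read counts per library, as whole numbers per gene symbol. For the counting, strand setting and annotation release were not given in the sources used here. The summary lines of HTSeq (29% to 44.2% of each file) were left out of library sizes and tests. Fitted with edgeR 4.0.16 in R 4.3.3, the counts of all 6 libraries entered 1 model without covariates: filterByExpr (15663 of 24984 genes kept), TMM factors, quasi-likelihood F test, Benjamini-Hochberg over all genes tested and a threshold of 0.05. The biological coefficient of variation was 6%, with 3 residual degrees of freedom. "Called", "rose" and "fell" mean past that threshold. The test was also tried on data simulated from the fitted means and spread, with 200 changed genes among 15663 per comparison. It recovered 57% to 73% of the planted changes, and 10.5% to 11.8% of its calls were false, more than the threshold. Far more genes were called in the real data, so these shares may not carry over. Single calls near the threshold are uncertain. Alternatives were limma 3.58.1 (voom), DESeq2 1.42.0, other scalings and filters, and the omission of each library.

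Positions, exon overlap, transcript lengths and shared stretches come from GENCODE M21 (GRCm38), and start sequences from the RefSeq table of GRCm38.p6. Both may differ from the annotation used in counting. The members and gene lists were chosen with earlier results of these data known. Named by rule were the paralogs with their partners, Rpl5, Rpl11, Rps6, Rpl13a, Rpsa and the stalk genes, and per comparison the 5 highest and 5 lowest called changes at 2 CPM or more, the 4 highest levels per kilobase of each subunit, the 3 highest and lowest ranges, and the 2 highest and 2 lowest called genes of each list. Some genes that the rule names are not reported here, and other genes were named after their values were seen. Changes are on the log2 scale, with the SE from the model.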

Additional observations from a re-analysis of the deposited data

Results flagged for a closer look

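For 2 members the modified lines went in opposite directions from WT and the test of D395A against KO passed. Rpl19 rose in KO and fell in D395A, and D395A differed from KO by -1.06 ± 0.09 on the log2 scale (adjusted p = 5.4e-07, edgeR). Each KO library was above each WT library, and each D395A library below. Rpl37a was lower in KO and higher in D395A, a difference of 0.42 ± 0.08 (adjusted p = 7.5e-04, edgeR), although its calls against WT were lost when single libraries were left out. Rpl19 lies in a stretch of chromosome 11 whose other genes also differed between the lines (median of D395A against KO -0.77 over 56 genes), and the 7 tested neighbours of Rpl37a had a median of -0.24. What sets these differences was not tested.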

How the results depend on the processing

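No result changed direction while called, under any of the 18 settings. In every setting 20 of the 30 rises and 6 of the 13 falls in KO were called, as were 25 of 46 and 4 of 6 in D395A, and 13 of 26 and 5 of 6 of D395A against KO. With 1 library left out, the number of members that fell in KO ranged from 6 to 18, and the number that rose in D395A from 29 to 63. The number of falls in D395A varied as well. Of the 6 falls there in the main fit, 2 were of members off chromosomes 8 and 11 and free of opposite-strand overlap. D395A against KO gave 15 to 52 rises and 5 to 16 falls with 1 library left out, and 15 rises when only those groups were fitted. The D395A medians ranged from 0.08 to 0.32 for the large and from 0.17 to 0.40 for the small subunit. The share of counts in KO over that in WT was 1.12 without Rn45s and 1.12 without Rn45s and mitochondrial genes, of which the files hold 0 rows. Where a library was left out, its partner was assumed to vary like the other groups. The cause of these shifts was not tested, beyond the smaller number of samples.

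The replicate numbers did not pair the libraries: their deviations correlated by -0.00783, -0.00257 and -0.123 between groups over all genes. Over the members alone the correlations were 0.474 (WT with KO), -0.565 (WT with D395A) and -0.294 (KO with D395A), with no common sign. With the replicate block, 32 members rose and 13 fell in KO, 47 and 7 in D395A, and 27 and 6 in D395A against KO. The depth, with 1 count worth up to 0.0426 CPM, limits only Rpl3l, Rpl32l, Rpl34, Rps27 and the untested Rpl26 and Rpl30. Rpl32l and Rpl34 had SEs over 0.5.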

Other observations

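Of 8 genes tied to the nucleolar stress checkpoint, 5 rose and 3 fell in each line (medians 0.32 in KO and 0.31 in D395A), where 66.2% and 70.3% of all tested genes were called. Cdkn1a, an inhibitor of the cell cycle and a p53 target, read 164 and 157 CPM (WT), 367 and 385 CPM (KO) and 408 and 403 CPM (D395A). It rose by 1.23 ± 0.06 and 1.34 ± 0.06. Trp53, the gene of p53 itself, lies on chromosome 11 and read 364 and 362, 176 and 185, and 177 and 199 CPM. It fell by 1.01 ± 0.07 and 0.95 ± 0.07. Mdm4, an inhibitor of p53, fell by 0.75 ± 0.08 in KO and 1.38 ± 0.08 in D395A.

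Of 7 host genes of small nucleolar RNAs that carry TOP elements, 4 rose and 2 fell in KO (median 0.27), and 3 rose and 4 fell in D395A (median -0.22). Over all tested genes 33.6% rose and 32.6% fell in KO, and 36.3% rose and 34% fell in D395A. The rises of Snhg12 in KO and Snhg8 in D395A lost their calls in several settings, with DESeq2 among them (adjusted p = 0.13 and 0.17). Snhg3 read 51.4 and 50 CPM (WT), 99.1 and 95.9 CPM (KO) and 65.8 and 60.8 CPM (D395A), without overlap. Gas5 was counted at 86.7 and 87 CPM in WT and 81.7 and 85.1 CPM in KO, and at 73.4 and 75.4 CPM in D395A, where it fell by 0.22 ± 0.06.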
